A study of Mus musculus with 13 samples.

Results

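The cells described here are 138 tuft cells of the mouse small intestine, taken from the 8 libraries of 3 and 8 weeks. They were chosen by their own transcripts: a cell had to hold at least 3000 transcripts without the spike-in RNA, and the sum of Dclk1, Trpm5 and Rgs13 had to reach 20 per 10000 of them. Of 560 kept cells in these libraries 138 met the rule and 422 did not, and 892 cells were kept in the whole series of 13 libraries. Because expression chose the cells, every level of tuft cells against other cells is given as a description, with no test.

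The mice carried Lgr5-CreERT2 on C57Bl6/J and a Rosa26LSL-YFP reporter, so that tamoxifen marks cells in which the Lgr5 promoter drives Cre, together with their offspring (traced cells). The groups used are 3-week traced CD24+ cells (1 library), another 3-week library that carries the label non-traced CD24+ (1), 8-week traced CD24+ cells (3), 8-week traced cells with no CD24 gate named (1) and 8-week non-traced CD24+ cells (2), where the times count from the injection. The labels give neither the age and number of the mice nor whether libraries come from separate mice, so p-values measure only the spread between these libraries. CEL-seq, the method used, reads the 3' end of each transcript with a barcode for the cell and one for the molecule.

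Tuft cells are rare chemosensory cells of the epithelium with a tuft of long microvilli at the apex. They share the signalling cascade of taste cells, in which a G protein activates a phospholipase, calcium is released and the channel TRPM5 opens, and they are known as a source of eicosanoids, acetylcholine and the cytokine IL-25, which starts the type 2 response to worms and protists. POU2F3 is the transcription factor without which they do not form in the mouse.

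Of 7823 genes with enough transcripts to describe, 97 (1.24%) were at least 4-fold higher in tuft cells than in other kept cells of the same library in each of the 7 libraries that held 3 or more tuft cells. The 3 rule genes, high because they chose the cells, are counted in the 97. Folds compare CPM + 10, where CPM is the count of a gene per 1000000 transcripts of the summed cells, which understates those of low genes. Of these 97 genes 76 have a RefSeq promoter window (250 bases before to 50 bases after the start, GRCm38.p6), and 7 windows (9.21%) hold ATGCAAAT on either strand, the octamer bound by POU-domain factors, the family of POU2F3. Among all described genes 95 of 5937 windows hold it (1.60%), and among all genes with a window 532 of 27025 (1.97%). The 3 windows printed are those of the holders farthest above other cells, all from the minus strand and written 5' to 3', and the capitals mark each match.
Hpgds: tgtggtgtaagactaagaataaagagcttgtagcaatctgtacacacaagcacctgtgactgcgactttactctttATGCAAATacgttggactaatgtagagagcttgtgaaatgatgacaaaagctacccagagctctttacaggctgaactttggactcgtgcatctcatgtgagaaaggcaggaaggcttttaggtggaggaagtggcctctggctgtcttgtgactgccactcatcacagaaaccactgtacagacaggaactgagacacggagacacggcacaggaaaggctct
Kctd12: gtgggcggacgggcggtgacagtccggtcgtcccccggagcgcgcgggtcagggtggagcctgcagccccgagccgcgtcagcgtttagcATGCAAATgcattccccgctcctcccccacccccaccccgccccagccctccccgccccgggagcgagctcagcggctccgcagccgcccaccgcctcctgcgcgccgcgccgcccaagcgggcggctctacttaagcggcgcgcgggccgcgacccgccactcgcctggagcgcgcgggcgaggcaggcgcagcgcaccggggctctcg
1810046K07Rik: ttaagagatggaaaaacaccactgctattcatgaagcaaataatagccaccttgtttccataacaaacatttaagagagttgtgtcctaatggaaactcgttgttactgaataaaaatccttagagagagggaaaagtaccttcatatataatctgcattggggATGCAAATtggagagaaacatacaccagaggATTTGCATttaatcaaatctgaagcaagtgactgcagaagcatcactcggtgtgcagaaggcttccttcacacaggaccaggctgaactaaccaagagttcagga
The Hpgds window is chr6:65144681-65144980, with its match at -174 from the start. The Kctd12 window is chr14:102982588-102982887, with its match at -160, and that of 1810046K07Rik is chr9:51328869-51329168, with matches at -86 and -55. Hpgds is the haematopoietic prostaglandin D synthase and had 472 CPM in the pooled tuft cells and 20.9 CPM in other cells. Kctd12, an auxiliary subunit of GABA-B receptors, had 3530 and 138 CPM, and 1810046K07Rik had 305 and 11.8 CPM. The other holders were Pnpla3, Trim40, Pfkfb3 and Cables2.

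The octamer was 1 of 7 motifs searched on both strands. TTTGCAT and TATGCAAA, which overlap the octamer or each other, stood in 15.8% and 5.26% of the tuft windows and in 5.24% and 1.46% of all windows. GAGGAAGT, a string with the core bound by ETS factors such as SPIB, stood in 9.21% of tuft windows and 3.69% of all, and GAGGAA within it in 46.1% and 31.3%. CAGGTG stood in 31.6% and 22.6%, and AATCCC in 17.1% and 14.3%. A match describes letters in a window and is not a binding site.

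Tuft cells made up 30.6% of kept cells in the 3-week traced CD24+ library (19 of 62, exact 95% interval 19.6 to 43.7) and 2.0% (1 of 50, 0.0506 to 10.6) in the other 3-week library, which its label calls non-traced CD24+. The deposited combined table names the cells of that other library with YFP and without CD24, which goes against its label, and its single tuft cell enters no profile. At 8 weeks 16 of 87, 13 of 65 and 13 of 69 cells were tuft cells in the traced CD24+ libraries (18.4%, 20% and 18.8%), against 41 of 84 and 32 of 63 in the non-traced CD24+ libraries (48.8% and 50.8%). The shares averaged 19.1% ± 0.830 in traced (SD, n = 3) and 49.8% ± 1.40 in non-traced libraries (SD, n = 2), a difference of -30.7 percentage points with no overlap. An exact permutation of the libraries, with the one-sided p doubled, gave p = 0.2, the smallest that 3 and 2 libraries allow in that form. Counted by absolute difference, 1 of 10 splits was as large (exact permutation p = 0.1). In the traced library without the gate 3 of 80 cells met the rule (3.75%, 0.780 to 10.6), and in the 5-day traced libraries 1 of 332. The intervals cover counting error only.

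Cd24a, which encodes the antigen of the gate, was itself abundant in tuft cells, with 8297 CPM in the 3-week traced library, 7321, 7278 and 7424 CPM in the 8-week traced CD24+ libraries, 5268 CPM without the gate and 7252 and 6833 CPM in the non-traced libraries. Other cells of the same libraries had 788, 827, 1187, 1416, 476, 1905 and 1968 CPM. Tuft cells were higher than other cells in all 7 libraries, and the shares of the libraries sorted as CD24+ are of cells that passed a gate on this antigen.

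**Figure D1:**
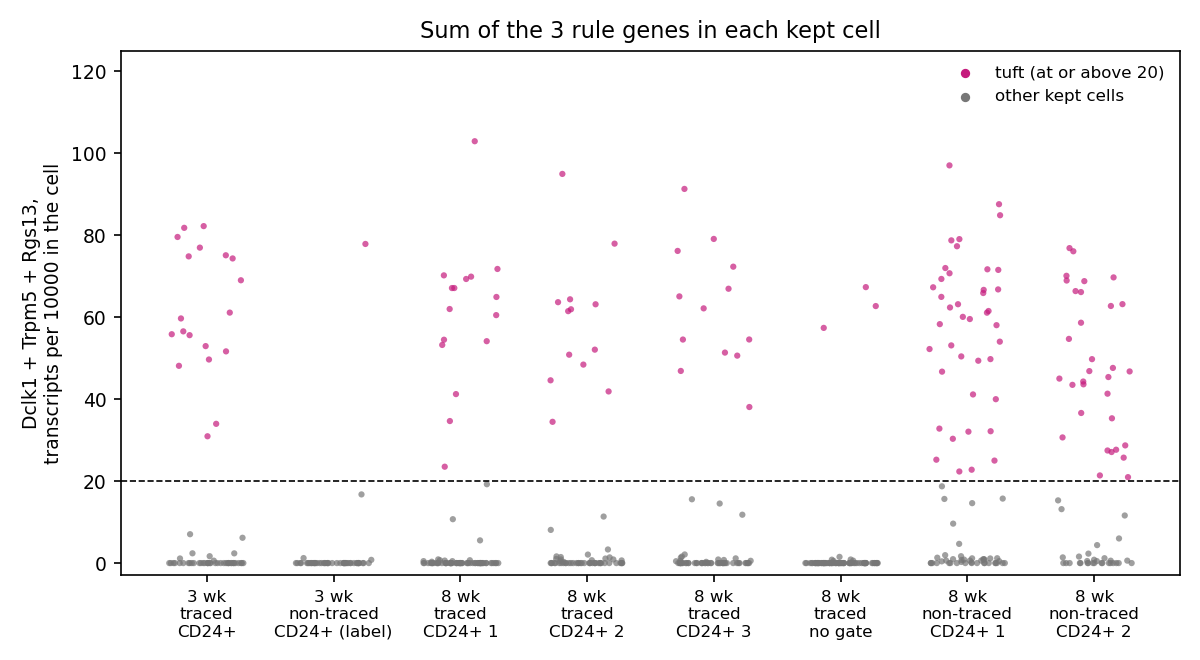
Each point is a kept cell and its height the sum of Dclk1, Trpm5 and Rgs13 per 10000 transcripts, by library, with the cutoff of 20 as a dashed line. Most other cells lie near 0, and 11 of the 12 tuft cells between 20 and 30 stand in the non-traced 8-week libraries.

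The sum of the 3 genes had a median of 59.1 per 10000 in tuft cells and of 0 in other cells, and 373 of the 422 other cells were under 1, as the plot of the sums by library shows. The cells nearest to the cutoff had 20.97, 21.4 and 22.3 inside and 19.2, 18.7 and 16.8 outside. Between 20 and 30 lay 12 tuft cells, and between 10 and 20 lay 14 other cells. None of the tuft cells met the marker rules that 100 enteroendocrine and 60 Paneth cells met. No doublet detection was run, all libraries use the same 96 cell barcodes, and no kept cell repeated the values of another.

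Tuft cells held fewer transcripts than other cells, with library medians of 3915 to 9388 in tuft cells and 6641 to 15275 in other cells of the 7 libraries. Thinned to 3000 transcripts they held more genes, with medians of 1670 to 1752 in tuft cells and 1469 to 1678.5 in other cells. The summed tuft cells of a library held 81480 to 381080 transcripts, except in the library without the gate, where 3 cells held 13314 and 3 transcripts already amount to 225 CPM.

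The label was set beside a list of tuft markers that the rule did not use. That list was chosen with earlier results of these data known, so it is not an independent check. Of its 18 genes described 15 were at least 2-fold higher in tuft cells in all 7 libraries, beside 231 of all genes described (2.95%). Their summed level was 23254 CPM in 3-week traced, 20561, 20220 and 19135 CPM in 8-week traced CD24+, 15643 CPM in ungated and 20885 and 16556 CPM in non-traced tuft cells, against 504 to 1743 CPM in other cells. Gfi1b, Chat and Il25 were the others, each at 0 in the tuft cells of at least 1 library. The 3 rule genes, which chose the cells, had 1966 to 2713 CPM (Dclk1), 1372 to 1840 CPM (Trpm5) and 1241 to 2121 CPM (Rgs13) in tuft cells and at most 95.3, 79.4 and 60.1 CPM in other cells.

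Avil, advillin, an actin-binding protein of the villin family, lies on chromosome 10 from 127000065 to 127020994 (GRCm38.p6). It had 2281 CPM in 3-week traced, 1999, 2115 and 1991 CPM in 8-week traced CD24+, 1604 CPM in ungated and 2032 and 1624 CPM in non-traced tuft cells, against 6.6 to 124 CPM in other cells. Alox5ap, which presents arachidonic acid to 5-lipoxygenase (chromosome 5, 149265004 to 149288153), had 1864, 1402, 1486, 1690, 1600, 1404 and 1212 CPM in the same order, against 1.1 to 81.7 CPM. Every library's tuft cells stood above every library's other cells for both genes. In cells thinned to 3000 transcripts Avil was seen in 99.3% of tuft and 6.7% of other cells, and Alox5ap in 97.1% and 4.0%.

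Among the 25 genes farthest above other cells, judged by the lowest of the 7 library ratios, was Siglec5 (Siglecf in RefSeq), a sialic-acid receptor known from eosinophils (chromosome 7, 43351341 to 43359475). It had 874 CPM in 3-week traced, 469, 334 and 627 CPM in 8-week traced CD24+, 151 CPM in ungated and 599 and 343 CPM in non-traced tuft cells, against 0 to 11.3 CPM in other cells, with a median log2 ratio of 5.10. Pygl, the liver-type glycogen phosphorylase, had a median log2 ratio of 5.23. Others were Smpx, Matk, Tspan6, Alox5ap, Bmx, Strip2, Ly6g6f, Ptgs1, Avil, Spib, Pik3r5, Ccdc109b, Alox5, Pou2f3, Ltc4s, Fyb, Tuba1a, Vav1, Inpp5d, Plcb2, Rac2 and Ptpn6, with lowest log2 ratios of 3.09 to 3.79. For 20 of the 25 the lowest ratio was that of a non-traced library.

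At least 4-fold lower in all 7 libraries were 49 genes (0.626%), and at least 2-fold lower 173 (2.21%), while the median gene differed by 0.16 on the log2 scale. Of the 10 genes farthest below other cells 8 belong to the lists of goblet, Paneth or enteroendocrine genes. Agr2, a disulphide isomerase of mucin-producing cells, had 47.5 CPM in 3-week traced, 6.8, 0 and 12.3 CPM in 8-week traced CD24+, 0 CPM in ungated and 18.4 and 20.5 CPM in non-traced tuft cells, against 843 to 6911 CPM in other cells. The others were Mmp7, the Paneth protease that activates defensins, Rnase1, Spink4, the guanylins Guca2b and Guca2a, the hormone Gip, the defensin Defa17, Reg4 and the granin Chgb. Their highest log2 ratios lay between -4.98 and -3.64.

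**Figure D2:**
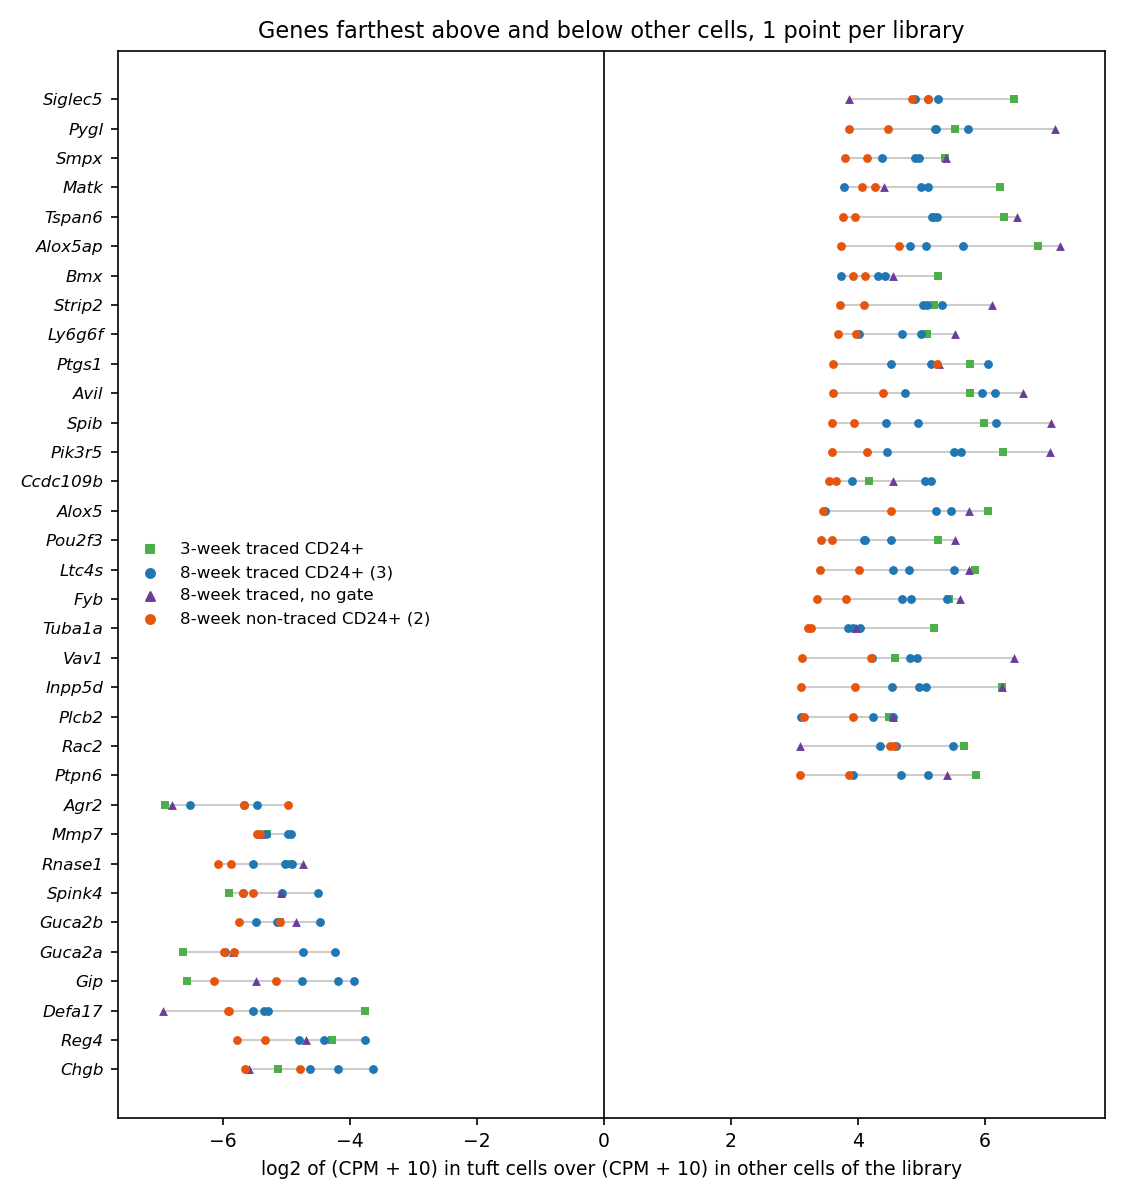
Each point is 1 library, placed by the log2 ratio of CPM + 10 in tuft cells over other cells. The genes drawn above 0 have lowest ratios of 3.09 or more and the 10 drawn below 0 have highest ratios of -3.64 or less, which is how they were picked.

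Of 12 taste transduction genes described, 7 were at least 2-fold higher in tuft cells in all 7 libraries and none lower. They were the G-protein gamma subunit Gng13, the inhibitory alpha subunit Gnai2, the phospholipases Plcb2 and Plcg2, the inositol trisphosphate receptor Itpr2, the fatty acid receptor Ffar3 and the regulator of G-protein signalling Rgs2. Plcb2 had 287 CPM in 3-week traced, 225, 311 and 185 CPM in 8-week traced CD24+, 226 CPM in ungated and 299 and 321 CPM in non-traced tuft cells, against 0 to 27.1 CPM in other cells. Itpr2 had 632 to 942 CPM in tuft and 8.7 to 95.4 CPM in other cells, while Itpr3, the form known from taste buds, had 0 to 151 CPM and 65.3 to 110 CPM. The alpha subunit gustducin, Gnat3, had 0 to 33.2 CPM in tuft cells, and the sweet and umami receptor genes Tas1r2 and Tas1r3 reached 2.6 and 16.4 CPM. Sucnr1, the succinate receptor, was seen in 13.9% of thinned tuft cells and in 0% of other cells.

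Of 10 eicosanoid genes described, 6 were at least 2-fold higher in all 7 libraries. Pla2g4a, which frees arachidonic acid, had 362 to 608 CPM in tuft and 32.1 to 81.4 CPM in other cells. On the leukotriene branch Alox5, 5-lipoxygenase, had 322 to 651 CPM in tuft and 0 to 22.5 CPM in other cells, and Ltc4s, leukotriene C4 synthase, 478 to 933 CPM and 0 to 36 CPM. On the prostaglandin branch Ptgs1, cyclooxygenase 1, had 378 to 775 CPM and 0 to 31.6 CPM, and Hpgds 359 to 535 CPM and 3.3 to 47.4 CPM. Alox5ap, given above, was the sixth. Lta4h, which makes leukotriene B4, had 49.2 to 111 CPM in tuft and 62.1 to 177 CPM in other cells, and Ptgds, Alox12, Alox15 and Tbxas1 had 0 transcripts in all tuft cells.

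Of 12 signalling genes best known from white blood cells, 8 were at least 2-fold higher in all 7 libraries. Their list summed to 10154 CPM in 3-week traced, 7460, 7023 and 7450 CPM in 8-week traced CD24+, 5083 CPM in ungated and 6925 and 5250 CPM in non-traced tuft cells, against 173 to 542 CPM in other cells. Among these were the exchange factor Vav1, the lipid phosphatase Inpp5d (SHIP1), the tyrosine phosphatase Ptpn6 (SHP-1), the GTPase Rac2, the adaptor Fyb, the kinase Lyn and the lipid kinase Pik3cg. Of the 12 genes 10 were higher in all 7 libraries, while Lcp1 was lower in all 7, with log2 ratios of -2.55 to -0.52. Syk, also on the list, was higher in only 1 library. Ptprc, CD45, was seen in 13.1% of thinned tuft cells and 0.27% of other cells. Of 15 lineage markers of white blood cells, 10 were at 0 in all tuft cells, among them Cd3e, Csf1r, Itgax and Lyz2, and the list summed to 135 to 467 CPM in tuft and 53.6 to 208 CPM in other cells. Most of that sum in tuft cells was Kit, a receptor kinase of mast cells that some epithelial cells also express, with 87.3 to 422 CPM in tuft and 40.5 to 129 CPM in other cells. Tyrobp, Fcer1g, Cd53 and Laptm5, found in most myeloid cells, had 0 transcripts in tuft cells.

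Of 13 cytokine and receptor genes described, 3 were at least 2-fold higher in all 7 libraries. Il13ra1, a receptor chain for IL-13, had 568 to 1139 CPM in tuft and 29.4 to 86.2 CPM in other cells, and Il17rb, part of the IL-25 receptor, 60.6 to 102 CPM and 0 to 11.2 CPM. The interferon regulatory factor Irf7 was the third. Il25 itself had 0 to 40.7 CPM in tuft and 0 to 1.3 CPM in other cells, and was seen in 6.6% and 0% of thinned cells. Il33 and Il2rg had 0 transcripts in tuft cells.

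Of 17 genes of microvilli and cytoskeleton described, 7 were at least 2-fold higher and 5 at least 2-fold lower in all 7 libraries. Among the higher were Avil, the actin bundler Espn, the keratins Krt8, Krt18 and Krt23 and the tubulin Tuba1a, and Krt18 had 2539 to 6525 CPM in tuft and 469 to 1258 CPM in other cells. Lower were the keratins Krt19 and Krt20, the capping protein Eps8, Myl7 and Map1b, and Krt20 had 0 transcripts in tuft cells against 38.1 to 183 CPM in other cells. Of 6 genes known from neurons that were described, Nrep was at least 2-fold higher in all 7 libraries.

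Of 9 transcription factors of the tuft list described, 4 were at least 2-fold higher in all 7 libraries. Pou2f3 (chromosome 9, 43123927 to 43205755) had 374 CPM in 3-week traced, 389, 379 and 358 CPM in 8-week traced CD24+, 453 CPM in ungated and 345 and 362 CPM in non-traced tuft cells, against 0 to 24.8 CPM in other cells. Spib, an ETS factor known from B cells, had 1448 to 2104 CPM in tuft and 1.1 to 120 CPM in other cells, and the homeobox gene Hmx2 and Sox9 were the other two. Of 19 factors of other secretory lines and progenitors none was 2-fold higher and 6 were 2-fold lower in all 7 libraries. Atoh1, which sets the secretory fate, had 0 to 5.3 CPM in tuft and 41.6 to 237 CPM in other cells, and Neurog3 and Gfi1 had 0 transcripts in tuft cells.

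Cell cycle genes summed to 151 to 1370 CPM in tuft and 1485 to 4171 CPM in other cells, the highest tuft sum being that of non-traced replicate 2. None of 25 described was 2-fold different in all 7 libraries, and 4 of 137 tuft cells held 10 or more such transcripts among 3000. None of 8 stem genes passed 2-fold in all 7 libraries either way, but their median log2 ratio was -1.64. The stem list summed to 349 to 836 CPM in tuft and 530 to 1801 CPM in other cells. Lgr5, the stem cell marker that drives the Cre, went the other way, seen in 28.5% of thinned tuft cells and 13.9% of other cells. Genes of MHC class II summed to 0 to 440 CPM in tuft and 418 to 2060 CPM in other cells, with 4 of 7 at least 2-fold lower in all 7 libraries. Of the other lines at least 2-fold lower were 6 of 11 goblet, 10 of 17 enteroendocrine and 4 of 7 enterocyte genes. The single stromal gene described, Vim, was also lower, with 0 transcripts in tuft cells.

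**Figure D3:**
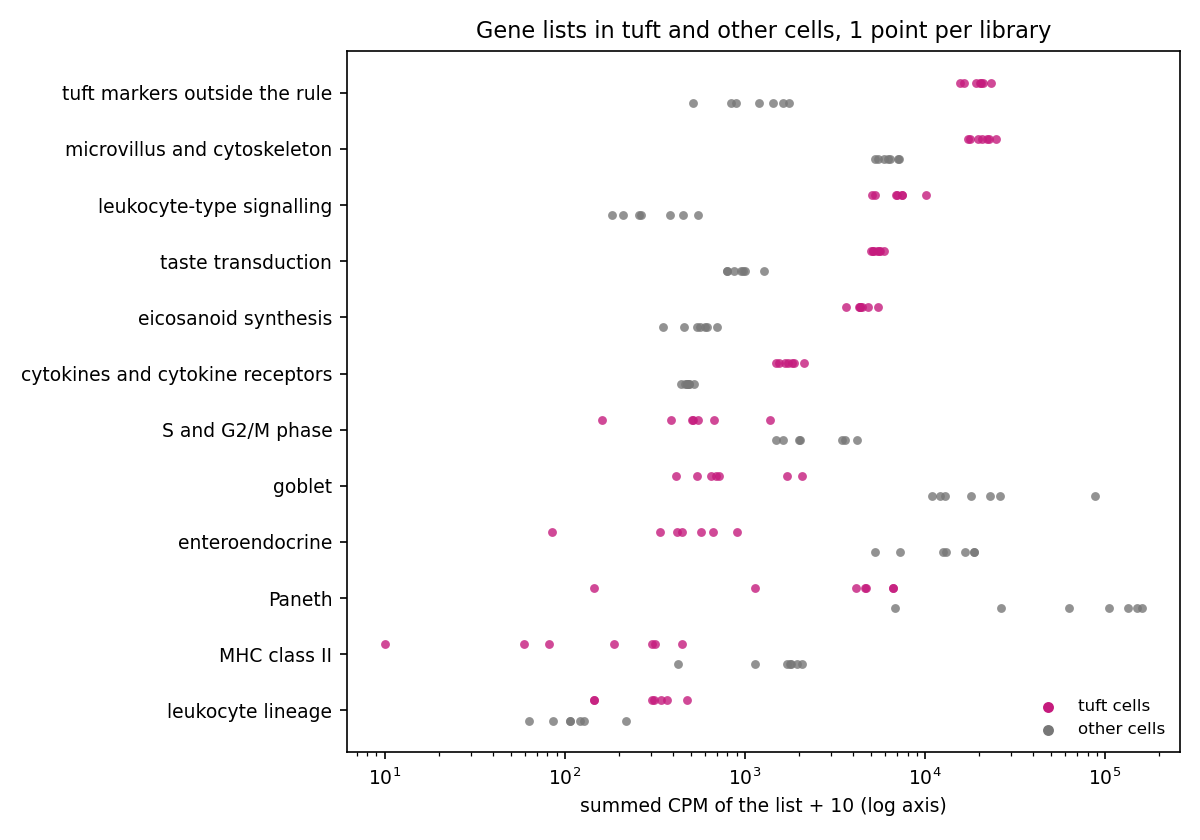
Each point is 1 library, with the summed CPM of a gene list plus 10 on a log axis, in tuft cells and in other cells. The sums of tuft markers, taste, eicosanoid and leukocyte-type signalling genes do not overlap between tuft and other cells, and the Paneth sums run from 135 to 6649 CPM in tuft and from 6828 to 160162 CPM in other cells.

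Of 22 Paneth genes, 10 were at least 2-fold lower in tuft cells in all 7 libraries, yet Paneth transcripts were present in them. The list summed to 135 CPM in 3-week traced, 4701, 4628 and 6649 CPM in 8-week traced CD24+, 1134 CPM in ungated and 4117 and 6637 CPM in non-traced tuft cells. In other cells it summed to 6828, 104615, 63281, 134252, 26487, 149643 and 160162 CPM in the same order. Lyz1, the Paneth lysozyme, was seen in 70.1% of thinned tuft cells and 79.6% of other cells. The part of free RNA in these levels was not tested.

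Traced and non-traced tuft cells of 8 weeks were compared over 3 and 2 libraries, as sums of 42 and 73 cells, with edgeR's quasi-likelihood test. Of 3454 genes 6 passed an adjusted p of 0.05 (0.174%), 1 higher (0.029%) and 5 lower (0.145%) in traced cells, and 189 had an unadjusted p under 0.05. None of the 97 genes at least 4-fold higher in tuft cells passed. The 3 rule genes are counted among the 97 but not read as results, since the same cutoff on them chose the cells of both groups. The log2 changes of the 97 ran from -0.83 to 0.70 with a median of 0.08, beside 0.01 for all genes. The count rested on single libraries: leaving out traced replicate 1 gave 1 (none of the 6), leaving out traced replicate 3 gave 3, and leaving out non-traced replicate 1 or 2 gave 17 or 12. With the tuft cutoff at 40 it was 1, and in cells chosen by Avil and Alox5ap 0, with 142 genes at an unadjusted p under 0.05 in edgeR. DESeq2 called 1 gene, Reg3g. Some library names in the combined table carry a II, whose meaning is not given. With that mark as a term 13 genes passed, the 6 among them, and each side of the mark holds too few libraries for a test.

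Dclk1 had 2463, 2480 and 2713 CPM in traced and 2232 and 1966 CPM in non-traced tuft cells, a log2 change of 0.26, without overlap, as was so in either direction for 634 of the 3454 genes (18.4%). Trpm5 had 1459, 1528 and 1419 CPM in traced and 1651 and 1372 CPM in non-traced cells, with overlap and a log2 change of -0.06. Both were among the genes tested, but the rule chose the cells by them, so their test results are not read. Outside the rule, Avil changed by 0.14 (SE 0.16), Alox5ap by 0.20 (SE 0.17) and Pou2f3 by 0.08 (SE 0.24). None of 17 tuft markers, 10 taste genes, 9 eicosanoid genes, 10 leukocyte-type signalling genes or 8 tuft transcription factors tested passed, and the median log2 changes of these lists were 0.08, 0.06, 0.19, 0.20 and 0.19. A miss of the threshold does not show that the groups are equal.

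Pate4, a small secreted protein best known from the male reproductive tract, was the gene that rose. It had 352, 282 and 173 CPM in traced and 106 and 53.4 CPM in non-traced tuft cells (log2 change 1.71, SE 0.33, adjusted p = 0.0039 with edgeR). The groups did not overlap, as was so in either direction for 18.4% of the genes tested, and other cells had at most 36 CPM. Its transcripts came from 19 of 42 traced and 22 of 73 non-traced cells, and the 5 highest cells held 63.8% and 60.7% of them. Leaving out traced replicate 1 gave an adjusted p of 0.46 with edgeR, and leaving out non-traced replicate 2 one of 0.12.

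The antimicrobial lectins Reg3g and Reg3b and the keratin Krt19 fell. Reg3g had 47.6, 55.4 and 49.2 CPM in traced and 215 and 483 CPM in non-traced tuft cells (log2 change -2.76, SE 0.39, adjusted p = 4.56e-05 with edgeR). Reg3b had 20.4, 33.2 and 24.6 CPM in traced and 197 and 177 CPM in non-traced cells (-2.88, SE 0.42). Krt19 had 40.8, 33.2 and 24.6 CPM in traced and 194.8 and 125.4 CPM in non-traced cells (-2.25, SE 0.41). None of the 3 genes overlapped between groups, as was so in either direction for 634 of the 3454 genes tested (18.4%). Their transcripts sat in few non-traced cells: the 11 of 73 with a rule sum between 20 and 30 held 75.9% of Reg3g, 49.7% of Reg3b and 89.5% of Krt19. With the cutoff at 30, chosen after this was seen, the 3 genes were too low to enter the test, and with the cutoff at 10 the log2 changes were -0.40, -0.11 and -0.76, none past the threshold. Without traced replicate 1 none of the 3 passed, and Krt19 also did not pass without traced replicate 3 or without non-traced replicate 1. Reg3g and Reg3b are close copies, so reads may have been split between them.

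The cells near the cutoff were set side by side over the 7 libraries, thinned to 3000 transcripts. The 12 cells between 20 and 30 had a median of 32 transcripts of tuft markers outside the rule, against 63 in cells at 30 or more, 21 in cells between 10 and 20 and 2 in cells under 10. Mean Reg3g was 2.75 between 20 and 30, 0.24 at 30 or more, 2.00 between 10 and 20 and 2.76 under 10, and mean Krt19 was 1.33, 0.04, 0.92 and 1.41. The cells between 20 and 30 thus lay near those under 10 in Reg3g and Krt19 and between both sides in tuft markers. Their median total was 11287 transcripts, against 7027, 15310 and 10345. Whether they are doublets was not tested.

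The alpha-defensins Defa21 and Defa20, granule peptides of Paneth cells, also fell. Defa21 had 13.6, 0 and 0 CPM in traced and 78.99 and 246 CPM in non-traced tuft cells (fitted log2 change -4.49, adjusted p = 0.00029 with edgeR). On 2 and 90 summed transcripts the non-traced level was 22.99 times the traced one, with an exact interval of 6.18 to 193 for counting error. Defa20 had 6.8, 88.6 and 36.9 CPM in traced and 148 and 288 CPM in non-traced cells (-2.45, SE 0.46, adjusted p = 0.0025 with edgeR). Both were spread over cells, seen in 2 and 10 of 42 traced and in 48 and 59 of 73 non-traced cells. Neither passed without traced replicate 1 or without traced replicate 3. Defa21 was too low to enter the test without non-traced replicate 2.

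The same defensins moved in other cells of these libraries. Defa21 had 1755, 176 and 441 CPM in traced and 3453 and 6623 CPM in non-traced other cells, and Defa20 1125, 1589 and 2132 CPM in traced and 6481 and 9759 CPM in non-traced ones. The difference of the change between tuft and other cells was -2.09 for Defa21 (SE 0.74, adjusted p = 0.20 with edgeR) and 0.01 for Defa20 (adjusted p = 1 with edgeR). The part of free RNA in the tuft values was not tested, and defensin genes are close copies between which reads may have been split.

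**Figure D4:**
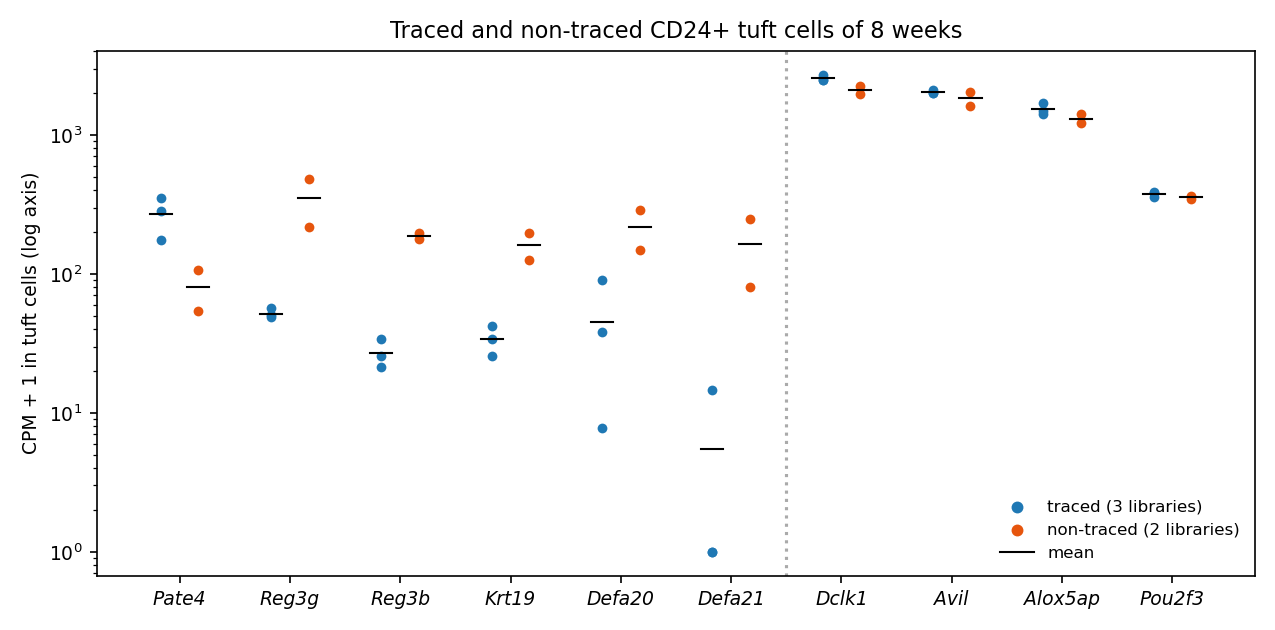
Each point is the CPM + 1 (log axis) of a gene in the summed tuft cells of 1 library, traced left of non-traced, with group means as lines. The 6 genes left of the dotted line passed the test without overlap of the groups. Right of it, Avil, Alox5ap and Pou2f3 are tuft markers outside the rule, none of which passed. Dclk1, also right of it, is a rule gene whose test result is not read.

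A second edgeR test asked for which genes the traced against non-traced change differs between tuft and other cells. It called 89 of 8023 genes (1.11%), 46 with a higher (0.573%) and 43 with a lower change in tuft cells (0.536%). The split depended on the cells: 73 of 81 calls were higher with the cutoff at 30, 79 of 88 at 40 and 59 of 68 in cells chosen by Avil and Alox5ap. By lists, 7 of 18 tuft markers outside the rule and 5 of 12 leukocyte-type signalling genes were called higher, with Kctd12 at 1.81, Avil at 1.79 and Spib at 1.63. So were 4 of 22 Paneth genes (Gm15284, Mptx2, Itln1 and Defa24) and 3 of 17 enteroendocrine genes (Sct, Reg4 and Chgb). The 3 rule genes, which set the classes apart, are among the 46 higher calls. They are counted there but not read as results. Of the 97 genes at least 4-fold higher in tuft cells, the rule genes included, 91 had a positive difference, 24 were called higher and 0 lower. Genes that go with the rule genes are limited in other cells by the same cutoff. For such genes the test cannot tell a change from the choice of cells, and no conclusion is drawn from their calls. Dclk1 in other cells had 30.3, 25.2 and 54.5 CPM in traced and 95.3 and 82.03 CPM in non-traced libraries, without overlap. Between 10 and 20 on the rule lay 6 of 179 other cells in the traced CD24+ (3.35%) and 7 of 74 in the non-traced libraries (9.46%). With the cutoff at 10, which counts those cells as tuft cells, 4 genes were called. Leaving out traced replicate 1 gave 21 calls, and leaving out traced replicate 2 or non-traced replicate 2 gave 30 each, while DESeq2 called 1.

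Of 25 cell cycle genes 5 were called with a lower change in tuft cells and none with a higher one: Mki67, Top2a, Cdk1, Ube2c and Hmgb2. Among all 8023 genes tested 43 were called lower (0.536%). Cdk1, the kinase of mitotic entry, had 0, 11.1 and 0 CPM in traced and 15.8 and 53.7 CPM in non-traced tuft cells. In other cells it had 176, 142 and 67.8 CPM in traced and 43.1 and 40.6 CPM in non-traced libraries (difference -4.78, SE 1.00, adjusted p = 0.0026 with edgeR). Traced cells were the lower group among tuft cells and the higher one among other cells, without overlap in either, on 1.00 summed transcripts in traced and 19.2 in non-traced tuft cells. In tuft cells 634 of the 3454 genes of the first test (18.4%) did not overlap in either direction. Its adjusted p with edgeR was 0.72, 0.52 and 0.44 at cutoffs of 10, 30 and 40, 0.22 with traced replicate 1 left out and 0.28 with non-traced replicate 2 left out. Among tuft cells Mki67, Top2a and Ube2c overlapped between the groups, with 6.8, 0 and 24.6 CPM of Mki67 in traced and 18.4 and 113 CPM in non-traced libraries. For all 5 genes non-traced replicate 2 was the highest tuft library.

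Tuft cells of 3 and 8 weeks were compared as levels only, since 3 weeks is 1 traced library. Of 2422 genes with at least 100 CPM, 2 stood at least 4-fold above every 8-week traced CD24+ library (0.0826%) and 11 at least 4-fold below (0.454%). The pair above, Clca3 and Fcgbp, are goblet cell products. Clca3 had 127 CPM (exact interval 72.8 to 206) at 3 weeks and 0 CPM in all of the 8-week traced CD24+ libraries, and Fcgbp 215 CPM (142 to 312) at 3 weeks and 27.1, 22.2 and 0 CPM at 8 weeks. Other cells had 15592 CPM of Fcgbp at 3 weeks and 853, 320 and 743 CPM at 8 weeks.

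Of the 11 below, Lyz1 had 0 CPM in tuft cells at 3 weeks, where 3 transcripts amount to 23.7 CPM, and 619, 668 and 1249 CPM at 8 weeks. Itln1, an intelectin of Paneth and goblet cells, had 7.9 CPM at 3 weeks and 768, 806 and 1288 CPM at 8 weeks. In other cells Lyz1 had 437 CPM at 3 weeks and 16127, 9459 and 25614 CPM at 8 weeks, so both classes differed the same way. Cenpf, a kinetochore protein of dividing cells, had 23.8 CPM (4.91 to 69.4) at 3 weeks and 357, 472 and 223 CPM at 8 weeks in tuft cells. In other cells it had 64.7 CPM at 3 weeks and 85.8, 92.1 and 40.7 CPM at 8 weeks, which overlap. The others were Gm14851, AY761184, Defa24, Gm15284, Mptx2, Defa17, Dmbt1 and Scamp3. Time and library cannot be told apart here.

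Tuft cells also differed among themselves. In 134 tuft cells of the 6 libraries with at least 10, thinned to 3000 transcripts, the variance of a gene was a median of 1.06 times its mean. Ranked by the lowest library ratio, Krt18 and Adh1, an alcohol dehydrogenase, came first with at least 3.86 and 2.71, followed by Rgs2, Malat1, Fabp1, Spink3 and Tm4sf4. By the median over libraries Fabp1 had 9.11, Adh1 5.73, Spink3 5.66 and Krt18 4.59. Fabp1, the liver-type fatty acid binding protein, and Spink3, a trypsin inhibitor, were high in the same few cells. Over 134 cells, within libraries, their Pearson correlation was 0.78, the highest of 540280 pairs among 1040 genes, whose median was 0.0019. By library it was 0.82 at 3 weeks, 0.91 and 0.97 in traced replicates 1 and 3 and 0.80 and 0.55 in non-traced replicates 1 and 2, and traced replicate 2 had no Spink3.

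The 9 cells with 5 or more Fabp1 transcripts came from 5 of the 6 libraries and were described beside the 98 cells without any, a split chosen after the values were seen. They averaged 7 Spink3 transcripts against 0.12, 5.33 of Siglec5 against 1.05, 5.00 of Rac2 against 0.79 and 4.44 of Nrgn, a calmodulin-binding protein of neurons, against 0.68. Nrep, another gene of the neuronal list, went the other way with 0.56 against 1.33. Of the tuft markers outside the rule Avil had 7.67 against 5.98 and Pou2f3 1.11 against 1.20, seen in 5 of the 9 and 71 of the 98 cells. The enterocyte genes Apoa1, Apoa4, Alpi, Sis and Fabp2 had 0 transcripts in all 9 cells. They were nearly absent from the 98 cells too, seen in 1, 1, 0, 1 and 3 of them. Ptprc was seen in 5 of the 9 and in 7 of the 98.

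Leukocyte-type signalling and ribosomal protein genes ran against each other among tuft cells. Within the 6 libraries the Spearman correlation of their sums lay between -0.86 and -0.69, and that of ribosomal genes with tuft markers outside the rule between -0.83 and -0.64. With the taste genes it lay between -0.56 and -0.05. The 12 tuft cells with a rule sum between 20 and 30 held 351 to 607 ribosomal transcripts, beside library medians of 350 to 373. Their median leukocyte-type sum was 9, against 20 in cells at 30 or more. Whether the correlations hold without these cells was not tested. The 9 cells with 5 or more Fabp1 averaged 42.2 leukocyte-type signalling and 211 ribosomal transcripts of 3000, against 18.2 and 398 in cells without Fabp1. All sums come from the same cells and share a total of 3000, which by itself sets abundant and other genes against each other. The transcripts per cell before thinning correlated with the leukocyte-type sum at -0.21 to 0.39.

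**Figure D5:**
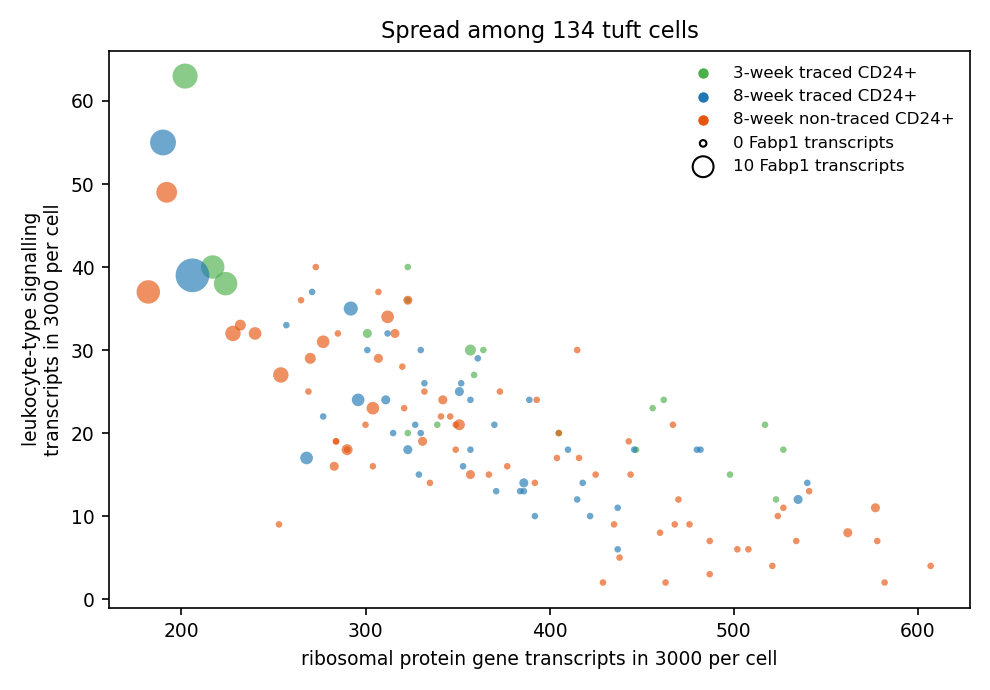
Each of 134 tuft cells is placed by its ribosomal protein and leukocyte-type signalling transcripts among 3000, coloured by group, and the point grows with Fabp1. Cells run from high ribosomal and low signalling levels to the reverse, with Spearman correlations of -0.86 to -0.69 within libraries. The 12 cells with a rule sum between 20 and 30 are included.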

How the data were processed

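Single cells were measured by CEL-seq in 13 libraries of 96 barcodes. The authors deposited expected counts per gene and cell, with no scaling; from the values, they are numbers of molecular barcodes corrected for collisions. The combined table holds the same values. BWA 0.6.2-r126 and mm10 are named per the submitters' processing notes; gene models and strand are not given in the sources used here. Cells with at least 3000 transcripts were kept. Counts were summed per library and class, rounded, and tested with edgeR 4.0.16 (TMM, filterByExpr, quasi-likelihood F test, Benjamini-Hochberg threshold 0.05) in R 4.3.3, with SE as the change over the root of F, the library as replicate and, for the second test, as a block. DESeq2 1.42.0, other cutoffs, filters and blocks were alternatives. Shares were compared by exact permutation. Tables were handled with pandas 2.3.3, numpy 2.4.6 and scipy 1.17.1, and the test script was tested on simulated data. The members and gene lists were chosen with earlier results of these data known. Genes named are the 25 highest and 10 lowest by the least favourable library ratio at 100 CPM or more, the lists' members and, per test, up to 10 calls a direction with at least 20 CPM and no overlap. Genes named for the spread among tuft cells and for promoter matches were chosen after their values were seen. Some genes that the rule names are not reported here.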

Additional observations from a re-analysis of the deposited data

Results flagged for a closer look

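The genes given here are those whose traced against non-traced change at 8 weeks differed between tuft and other cells in the edgeR test (log2, tuft minus other). They are among the largest in each direction of the called genes with at least 20 CPM whose tuft libraries did not overlap, rule genes left out, so larger called differences outside these limits are not listed. All 20 genes picked for this test, Dclk1 among them, gave weaker results with the tuft cutoff at 10 and with DESeq2. Without traced replicate 1 the results of 16 were weaker. Among signalling and tuft genes the difference was 2.55 for Pik3cg, 1.75 for Inpp5d, 1.72 for Tspan6 and 1.63 for Spib. All of these are among the 97 genes at least 4-fold higher in tuft cells. For them the test cannot tell a change from the choice of cells by the cutoff. In tuft cells alone none of Pik3cg, Inpp5d, Tspan6 and Spib passed. Pik3cg had 634, 502 and 558 CPM in traced and 500 and 333 CPM in non-traced tuft cells, and 5.7, 1.8 and 12.7 CPM in traced and 21.8 and 40.5 CPM in non-traced other cells. The other higher ones were Ern2 at 2.46, Sdcbp2 at 1.91, Reg4 at 1.71, Tmem86a at 1.63 and Cyb5r3 at 1.41. Cyb5r3, a cytochrome b5 reductase, had 287, 334 and 359 CPM in traced and 135 and 148 CPM in non-traced tuft cells, and 136, 170 and 86.99 CPM in traced and 145 and 144 CPM in non-traced other cells.

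Lower were Cdk1 at -4.78, Myc at -4.16, Reg3b at -3.27, Tmem97 at -2.54, Dph5 at -2.50, Kcne3 at -2.47 and Krt19 at -2.42. The last pair turned to positive values at tuft cutoffs of 30 and 40, with 1.30 and 1.15 for Kcne3 and 0.0528 and 0.35 for Krt19. The fitted differences of 5430416N02Rik at -7.40, Dmpk at -7.16 and Nr3c1 at -6.83 depend on the prior count, since the 3 genes had 0 transcripts in the traced tuft cells. Nr3c1, the glucocorticoid receptor, had 7.9 and 45.3 CPM in non-traced tuft cells, and 124, 112 and 84.4 CPM in traced and 71.6 and 60.9 CPM in non-traced other cells.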

How the results depend on the processing

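The 6 genes called between traced and non-traced tuft cells became 3 with the tuft cutoff at 10, 3 at 30 (added after seeing the data), 1 at 40, 0 in cells chosen by Avil and Alox5ap (142 at an unadjusted p under 0.05 with edgeR), 17 with no filter on low counts, 14 with a replicate block, 13 with a block for the II in library names and 1 with DESeq2, and 1 to 17 when each library was left out. The 89 genes of the second test became 4 with the cutoff at 10, 144 with the replicate block, 145 with the II block and 1 with DESeq2, and 21 to 101 when each library was left out. Its 46 higher of 89 calls became 33 of 76 with upper quartile factors, 73 of 81 at cutoff 30, 79 of 88 at cutoff 40, 59 of 68 in cells chosen by Avil and Alox5ap and 38 of 104 with no filter. There Kcne3 turned to 1.30 and 1.15 and Krt19 to 0.0528 and 0.35 at cutoffs 30 and 40. The replicate numbers were not taken to pair the libraries: only 2 numbers are shared, and the residual correlations of same-numbered libraries were 0.14 and 0.084. The 97 genes at least 4-fold higher became 61 with a pseudocount of 30 CPM and 231 at 2-fold, and 97 to 119 when each library was left out. The share difference stayed between -32.8 and -19.2 points. Sh2d6, planned beside Avil and Alox5ap, was not used. The cause of these moves was not tested. A lone library left in a group was assumed to vary like the other group. Depth limits the library without the gate, where 3 transcripts are 225 CPM.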
